A study of Mus musculus with 29 samples.

Results

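The expression of interferon-induced genes was followed in the marrow and the spleen of MLL-ENL-ERtm mice, a model of myeloproliferative disease. Of 37 listed genes, 34 had at least 1 probe set annotated to that gene alone and were read from the brightest such probe set, out of 12394 genes read in the same way. The probe set of Isg15 was shared with another symbol, and no annotated probe set named Xaf1 or Samd9l, so these 3 genes were not analysed here. Members were listed by their known function, with earlier results of these data in view.

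Interferons are cytokines that set cells against viruses and other microbes. Type I interferons act through the receptor chains Ifnar1 and Ifnar2 and the kinases Jak1 and Tyk2 to activate Stat2 and Irf9, which bind a DNA element called the interferon-stimulated response element (ISRE). Interferon gamma, made mainly by T and NK cells, acts through Ifngr1, Ifngr2, Jak1 and Jak2 on genes that carry the gamma-activated sequence (GAS), and it is the stronger inducer of GTPases that attack intracellular parasites and of the machinery that loads peptides on class I molecules. In blood-forming tissue interferons also drive resting stem cells into division.

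MLL-ENL-ERtm joins the MLL-ENL oncoprotein to a mutated hormone-binding domain of the oestrogen receptor, so the protein works only while tamoxifen is given. All mice, wild-type controls included, ate chow with 300 mg/kg tamoxifen. Primary marrow or spleen cells were profiled, not sorted populations, and each array is labelled as a separate biological replicate. The promoter that drives the fusion and any pooling of animals are not given in the sources used here.

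Marrow of MLL-ENL-ERtm mice was taken in 3 states. The proliferation state had 4 arrays at 7 months of tamoxifen and is labelled as highly proliferating with a weak DNA damage response. The transition state, with slower proliferation and an active damage response, had 4 arrays at 7 to 8 months. The senescence state had 3 arrays at 8 months. Wild-type marrow had 4 arrays, array 1 at 8 months and arrays 2 to 4 at 7 months. Spleens of MLL-ENL-ERtm mice were taken in 3 disease stages with 3 arrays each, which are early (7 months, with proliferation and a damage response), progression (9 to 10 months, with partial senescence) and terminal (19 to 23 months, proliferating with little or no damage response). Wild-type spleen had 5 arrays at 8 to 24 months of tamoxifen, of which array 1 was the one at 24 months.

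Values were deposited on a log2 scale in which 1 unit is a 2-fold difference, with medians per array of 8.11 to 8.29 for marrow against 6.73 to 6.90 for spleen, so levels were never set across the tissues. Xist, an RNA of female cells, was at 10.67 or above on every proliferation and transition array, on 1 of 3 in senescence and on 2 of 4 from wild-type marrow. In spleen this held on 1 of 3 early arrays, no progression array, every terminal array and 2 of 5 from wild type. It was at 6.1 or below on the others. The 3 prime minus 5 prime Gapdh signal, a measure of RNA integrity, ran from 1.18 to 2.06 in marrow and up to 1.07 in spleen. Several arrays stood apart. Pancreas genes on wild-type spleen 3 lay on average 5.18 log2 units above the wild-type mean, and muscle and fat genes on proliferation marrow 1 lay 3.57 above it. Progression spleen 1 had the highest level of the 14 spleen arrays for 12 of 34 members, against 8.64% of all genes. Transition marrow 1 had the lowest level of the 15 marrow arrays for 16 of 34 members, against 15.5% of all genes. Tissue markers followed the labels, with the granule enzyme gene Mpo at a mean of 14.85 in wild-type marrow and the B cell receptor gene Cd79b at 12.31 in wild-type spleen.

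The RefSeq promoters of the members were searched for the core letters of the elements through which interferon acts. The RefSeq set used here held 31 promoters of 26 members in build GRCm38.p6, each from 250 bases before to 50 after the transcription start. It had no entry for Oas2, Mx1, Mx2, Usp18, Iigp1, Tap2, Zbp1 or Parp14, so these members were not searched. An ISRE core, searched as GAAANNGAAA on both strands, was found in 15 of 26 members (57.7%) and in 3.99% of the 27025 genes with a promoter. A GAS core, searched as TTCNNNGAA on both strands, was found in 8 of 26 members (30.8%) and in 9.55% of all genes. Both cores stood in 1 promoter of 4 members (15.4%) and of 0.54% of all genes. Among the roles, 5 of 6 interferon-inducible GTPases held an ISRE core and 1 of 5 class I presentation genes did, which was B2m. A match is only a match of letters and no proof of binding, and a promoter without one may hold other sites.

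The promoters of 8 members are shown because the results below turn on their genes. Each line holds the 150 bases before the start, 5′ to 3′ in the direction of the gene, with ISRE and GAS cores in capitals. They lie at chr3:142620513-142620662 on the plus strand for Gbp2, chr11:58199406-58199555 plus for Igtp, chr11:58214827-58214976 plus for Irgm2, chr11:48871421-48871570 minus for Irgm1, chr19:34640739-34640888 plus for Ifit1, chr12:26456453-26456602 minus for Rsad2, chr8:71537473-71537622 minus for Bst2 and chr17:34187331-34187480 minus for Psmb9.
Gbp2: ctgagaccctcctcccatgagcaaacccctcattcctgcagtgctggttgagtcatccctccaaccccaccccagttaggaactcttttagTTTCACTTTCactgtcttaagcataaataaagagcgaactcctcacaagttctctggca
Igtp: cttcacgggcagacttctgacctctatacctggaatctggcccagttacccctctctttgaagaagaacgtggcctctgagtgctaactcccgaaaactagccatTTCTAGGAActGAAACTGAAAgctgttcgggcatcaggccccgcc
Irgm2: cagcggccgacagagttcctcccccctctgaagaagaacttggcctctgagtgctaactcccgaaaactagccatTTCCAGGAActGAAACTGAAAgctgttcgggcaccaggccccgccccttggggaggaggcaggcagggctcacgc
Irgm1: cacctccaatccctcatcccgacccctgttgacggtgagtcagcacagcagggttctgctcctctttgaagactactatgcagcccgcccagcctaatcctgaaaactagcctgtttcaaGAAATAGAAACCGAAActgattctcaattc
Ifit1: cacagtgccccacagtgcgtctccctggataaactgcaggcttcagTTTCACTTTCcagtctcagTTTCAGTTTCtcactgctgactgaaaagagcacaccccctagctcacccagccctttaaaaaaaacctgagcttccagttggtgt
Rsad2: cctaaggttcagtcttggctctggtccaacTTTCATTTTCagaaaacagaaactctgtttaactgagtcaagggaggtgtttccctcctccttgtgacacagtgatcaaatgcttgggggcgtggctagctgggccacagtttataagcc
Bst2: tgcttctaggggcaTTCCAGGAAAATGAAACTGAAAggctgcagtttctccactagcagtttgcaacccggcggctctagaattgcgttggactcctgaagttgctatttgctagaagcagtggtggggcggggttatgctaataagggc
Psmb9: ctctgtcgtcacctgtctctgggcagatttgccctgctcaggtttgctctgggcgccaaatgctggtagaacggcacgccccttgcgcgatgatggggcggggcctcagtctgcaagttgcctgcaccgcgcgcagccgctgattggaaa
Igtp and Irgm2 share an unbroken run of 38 bases, and in both a GAS core is followed closely by an ISRE core, beginning 45 and 34 bases before the start in Igtp and 75 and 64 bases before it in Irgm2. Ifit1 holds 2 ISRE cores, beginning 104 and 85 bases before the start. In Bst2 a GAS core overlaps 2 overlapping ISRE cores, and in Irgm1 2 ISRE cores overlap. Psmb9 holds neither core. Its promoter overlaps that of Tap1, which runs from the same stretch on the opposite strand and holds neither core as well.

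Many interferon-induced genes were lower than wild type in each of the 3 stages of MLL-ENL-ERtm spleen. In the early stage 18 of 34 members passed the test (limma, adjusted p under 0.05 over all genes), all 18 lower, while 15.9% of all genes were called in either direction and 8.55% lower. In progression 11 members were lower and 1 higher, with 19.3% of all genes called, 9.96% lower and 9.29% higher. In the terminal stage 19 were lower and 1 higher, with 34.5% of all genes called, 16.3% lower and 18.1% higher. The median member difference was -0.65, -0.38 and -0.54 log2 units in the 3 stages, and the median over all genes was 0.03, 0.04 and 0.04. Levels of the 3 early arrays lay wholly below the 5 wild-type arrays for 26 of 34 members, against 12.6% of all genes. In progression this held for 12 members (11.7% of all genes) and in the terminal stage for 22 (18.2%). The 3 stages share the 5 wild-type arrays, so their counts are not independent of each other. In whole tissue, fewer cells of a type and less RNA per cell cannot be told apart.

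**Figure D1:**
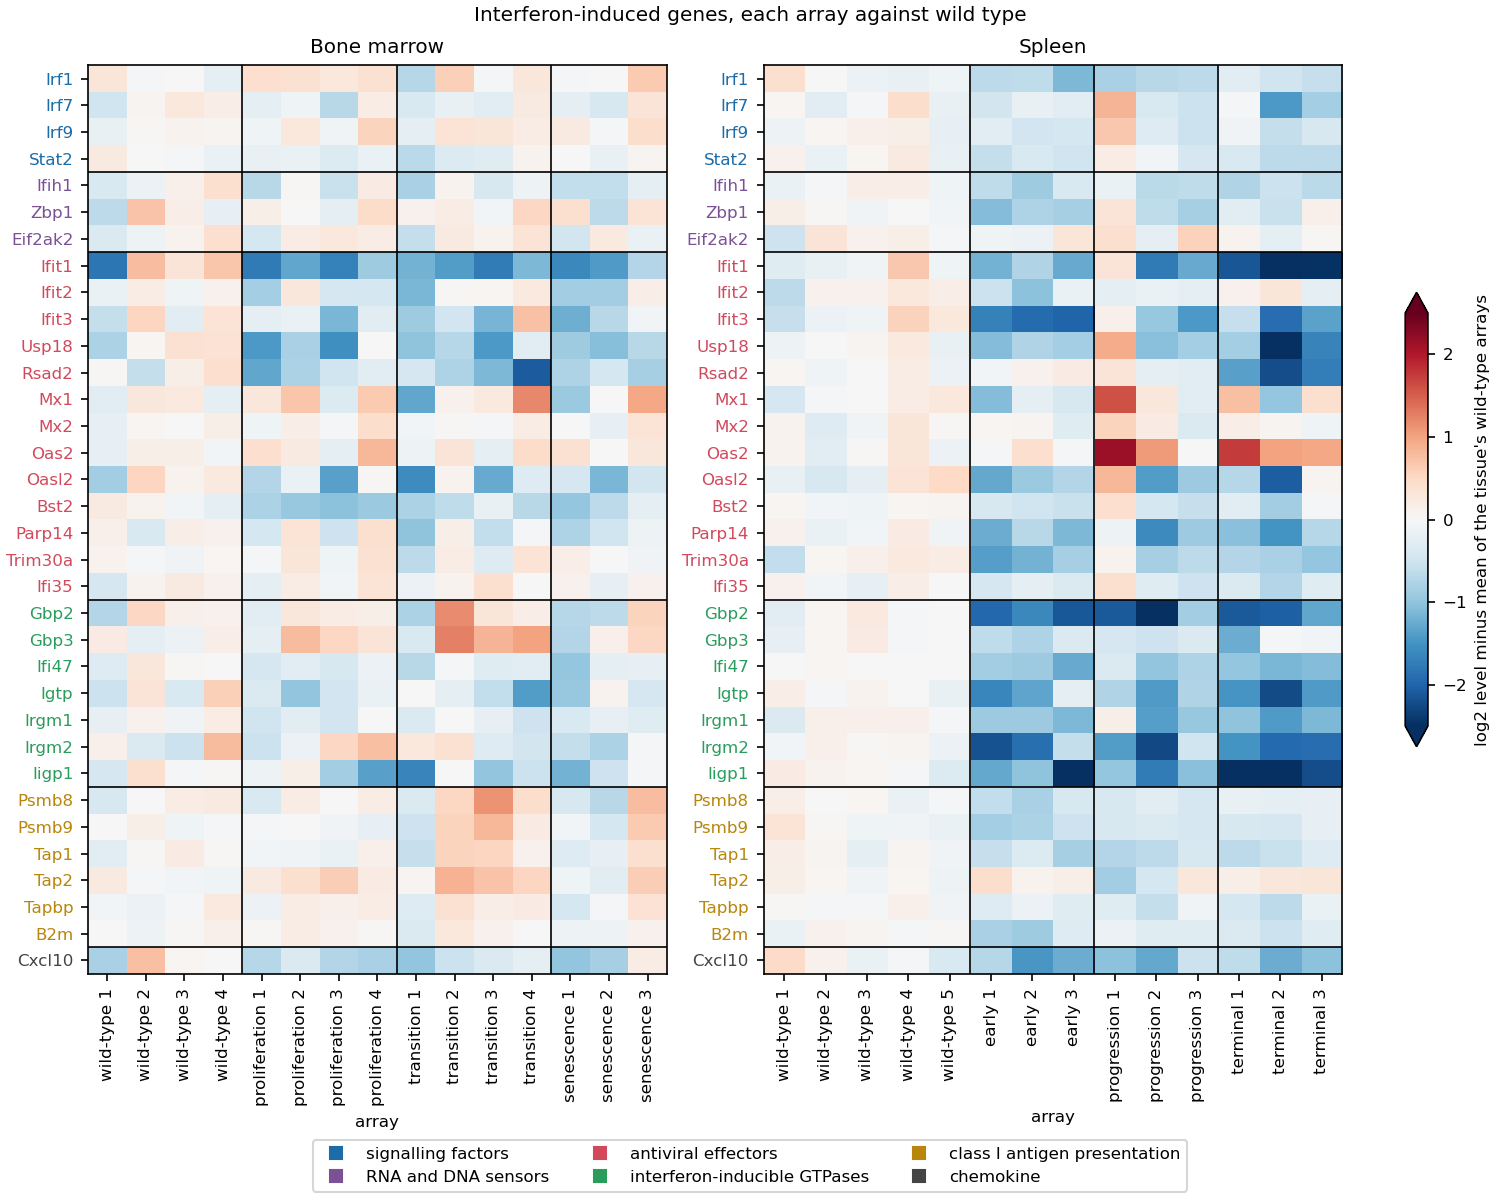
Each cell is the log2 level of 1 of 34 interferon-induced genes (rows, grouped and coloured by role) on 1 array (columns, grouped by state or stage) minus the mean of that tissue's wild-type arrays, with colours saturating at 2.5. In spleen most GTPase cells are blue in all 3 stages, while progression 1 has red cells in the antiviral rows, among them Oas2, Mx1 and Usp18.

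All 3 spleen stages had 9 called members in common, all lower, which came from all 6 roles. They were the transcription factor Irf1, the RNA sensor Ifih1, the antiviral ADP-ribosyltransferase Parp14, the GTPases Gbp2, Ifi47, Igtp and Irgm2, the peptide transporter subunit Tap1 and the chemokine Cxcl10. Of all genes, 5.64% were called lower in all 3 stages. In all, 22 of 34 members were called lower in at least 1 stage, against 19.9% of all genes. No single stage gave a call for 11 members, against 59.4% of all genes, namely Bst2, Eif2ak2, Gbp3, Ifi35, Ifit2, Irf7, Irf9, Mx1, Mx2, Oasl2 and Tap2.

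Cell type markers moved in the same spleens. Across all genes, 8.55%, 9.96% and 16.3% were called lower in the early, progression and terminal stages, and 7.35%, 9.29% and 18.1% higher. T cell markers were called lower for 9, 9 and 10 of 10 genes in the early, progression and terminal stages, and their mean deviation from wild type on single arrays was -1.82 to -1.31, -2.10 to -1.26 and -2.20 to -1.87. NK cell markers were lower for 5, 3 and 6 of 9 genes, with array means of -1.77 to -0.84, -1.21 to -0.48 and -1.54 to -0.49. B cell markers were lower for 6, 8 and 8 of 9 genes and higher for 1 in progression, with array means of -1.85 to -0.80, -2.35 to -0.83 and -3.44 to -2.09. These 3 lymphoid lists were thus below wild type on every MLL-ENL-ERtm spleen. Tissue macrophage markers were lower for 9, 7 and 9 of 10 genes, with array means of -2.44 to -1.07, -1.54 to -0.72 and -1.53 to -0.92. Plasmacytoid dendritic cell markers (Ccr9, Tcf4, Irf8, Cox6a2 and Ly6d) were lower for 2, 1 and 3 of 5 genes. Their array means were -1.20 to -0.60, -1.05 to -0.59 and -2.25 to -1.07, and Siglech and Runx2 of that list were not measured. Promyelocyte markers were higher for 5 of 5 genes and neutrophil markers for 9 of 9 in every stage, and promyelocyte means ran from 2.97 to 4.41 over the 9 arrays. The part of these shifts in the interferon results was not tested.

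The interferon-inducible GTPases had the largest median difference in spleen among the 5 roles with more than 1 member. These proteins gather on vacuoles that hold bacteria or parasites and break them open. Of 7 members, 6 were called lower in the early stage, 4 in progression and 6 in the terminal stage, and none was higher, where 8.55%, 9.96% and 16.3% of all genes were called lower. Their median difference was -1.06, -0.98 and -1.71.

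Gbp2, a guanylate-binding protein, lay at 9.30, 9.60, 9.81, 9.53 and 9.55 in wild type, 7.60, 7.94 and 7.44 in the early stage, 7.45, 6.99 and 8.68 in progression and 7.46, 7.52 and 8.26 in the terminal stage. Every MLL-ENL-ERtm spleen was below every wild-type spleen, and progression 3 came nearest to wild type. The difference was -1.90 (SE 0.30, adjusted p = 0.000766) in the early stage, -1.85 (SE 0.30, adjusted p = 0.000758) in progression and -1.81 (SE 0.30, adjusted p = 0.000346) in the terminal stage, between 3.51- and 3.73-fold lower. A dimmer probe set of Gbp2 gave -1.63, -1.61 and -1.59. Gbp3, of the same family, lay at 9.49, 9.74, 9.89, 9.65 and 9.70 in wild type, 9.05, 8.93 and 9.33 in the early stage, 9.27, 9.18 and 9.34 in progression and 8.46, 9.66 and 9.63 in the terminal stage. All early and progression arrays were below wild type and terminal 1 was lowest, yet no stage passed the test, with -0.59 (SE 0.22, adjusted p = 0.0881) in the early stage. Over the mean of the 3 stages Gbp3 fell by 0.49 (SE 0.17, adjusted p = 0.039), a call that ended without early 1, early 2, progression 1, progression 2 or any wild-type array but array 1 (adjusted p 0.0545 to 0.1).

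Ifi47, an immunity-related GTPase, lay at 10.96, 11.01, 10.96, 10.96 and 10.95 in wild type, 10.11, 10.06 and 9.70 in the early stage, 10.61, 9.97 and 10.21 in progression and 10.01, 9.83 and 9.88 in the terminal stage. The 5 wild-type spleens lay close together and all 9 MLL-ENL-ERtm spleens were below them, with progression 1 nearest. It fell by 1.01 (SE 0.13, adjusted p = 0.000257), 0.71 (SE 0.13, adjusted p = 0.00222) and 1.07 (SE 0.13, adjusted p = 3.72e-05) in the early, progression and terminal stages.

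Igtp, Irgm1 and Irgm2 are regulatory members of the same family that hold its effector GTPases inactive on the cell's own membranes. Igtp lay at 11.11, 10.90, 11.03, 10.93 and 10.76 in wild type, 9.32, 9.63 and 10.71 in the early stage, 10.20, 9.53 and 10.19 in progression and 9.47, 8.71 and 9.54 in the terminal stage. Early 3 stayed close to wild type while terminal 2 was lowest, and the groups did not overlap. Its differences were -1.06 (SE 0.28, adjusted p = 0.0186), -0.98 (SE 0.28, adjusted p = 0.0253) and -1.71 (SE 0.28, adjusted p = 0.000302). Irgm2 lay at 9.48, 9.67, 9.57, 9.62 and 9.40 in wild type, 7.38, 7.67 and 8.96 in the early stage, 8.16, 7.29 and 9.05 in progression and 8.06, 7.60 and 7.65 in the terminal stage. Early 3 and progression 3 were the nearest to wild type for Irgm2, with all 9 arrays below it, and the differences were -1.55 (SE 0.36, adjusted p = 0.00921), -1.38 (SE 0.36, adjusted p = 0.015) and -1.78 (SE 0.36, adjusted p = 0.00149). Irgm1 lay at 9.31, 9.81, 9.80, 9.81 and 9.66 in wild type, 8.78, 8.77 and 8.55 in the early stage, 9.82, 8.30 and 8.73 in progression and 8.68, 8.27 and 8.56 in the terminal stage. Progression 1 was the highest of the 14 arrays for Irgm1, and the other 8 MLL-ENL-ERtm arrays were below wild type. Irgm1 was called in the early stage, -0.98 (SE 0.26, adjusted p = 0.0175), and the terminal stage, -1.18 (SE 0.26, adjusted p = 0.00255), and not in progression, -0.73 (SE 0.26, adjusted p = 0.0604). Without progression 1 it was called there as well, at -1.16 (adjusted p = 0.000726).

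Iigp1, the effector that coats parasite vacuoles, lay at 8.92, 8.81, 8.77, 8.69 and 8.37 in wild type, 7.42, 7.70 and 5.15 in the early stage, 7.74, 6.96 and 7.66 in progression and 6.19, 5.59 and 6.49 in the terminal stage. All 9 arrays were below wild type, early 3 was lowest of all, and the 3 terminal arrays were below the 3 progression arrays. Its difference was -1.95 (SE 0.44, adjusted p = 0.00797) in the early and -2.62 (SE 0.44, adjusted p = 0.000384) in the terminal stage, both called, and -1.26 (SE 0.44, adjusted p = 0.061) in progression. The call of Igtp in the early stage ended without early 1 (adjusted p = 0.114) or early 2 (0.0788), that of Irgm2 without early 1 (0.0592), and that of Irgm1 without early 3 (0.0598). In progression the call of Igtp ended without progression 2 (0.156) or wild-type 3 (0.0508) and that of Irgm2 without progression 2 (0.109).

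**Figure D2:**
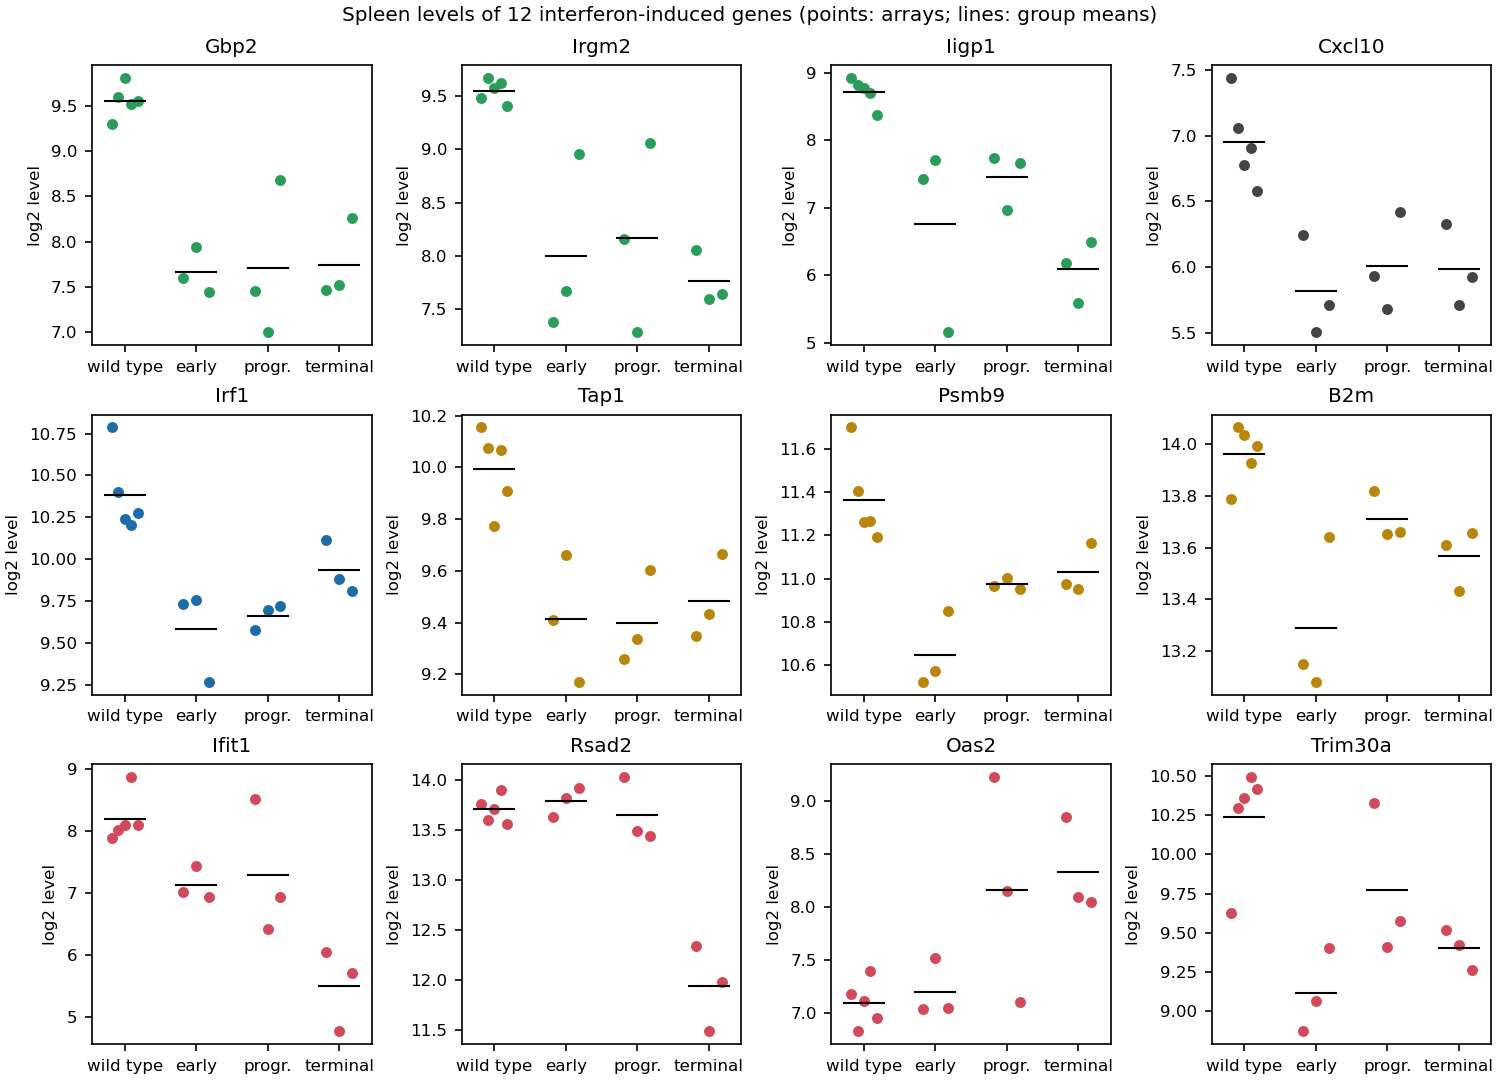
Log2 levels of 12 interferon-induced genes in spleen, 1 panel per gene with its own axis. Points are arrays (5 wild-type, 3 per stage) and lines are group means. Gbp2, Irgm2, Iigp1 and Cxcl10 lie below wild type in all 9 MLL-ENL-ERtm spleens, Rsad2 is below wild type on all 3 terminal arrays, and Oas2 is highest on progression 1.

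Of the class I presentation genes, 5 were called lower in at least 1 spleen stage and Tap2 in none. Psmb8 and Psmb9 replace proteasome subunits to cut peptides for class I molecules, Tap1 and Tap2 carry the peptides into the endoplasmic reticulum, Tapbp loads them, and B2m is the light chain of every class I molecule. Of 6 members, 4 were called lower in the early stage and 3 each in progression and the terminal stage, against 8.55%, 9.96% and 16.3% of all genes, with median differences of -0.60, -0.35 and -0.37.

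Psmb8 lay at 12.13, 11.97, 12.01, 11.79 and 11.93 in wild type, 11.35, 11.15 and 11.57 in the early stage, 11.57, 11.71 and 11.54 in progression and 11.78, 11.73 and 11.75 in the terminal stage. All 9 MLL-ENL-ERtm arrays were below the 5 wild-type arrays, early 2 being lowest and the terminal arrays nearest. Psmb8 fell by 0.61 (SE 0.11, adjusted p = 0.00184) in the early stage and 0.36 (SE 0.11, adjusted p = 0.0334) in progression, and its terminal difference was -0.21 (SE 0.11, adjusted p = 0.157). Psmb9 lay at 11.70, 11.40, 11.26, 11.27 and 11.20 in wild type, 10.52, 10.57 and 10.85 in the early stage, 10.97, 11.00 and 10.95 in progression and 10.97, 10.95 and 11.16 in the terminal stage. It was again below wild type on all 9 arrays, with early arrays 1 and 2 lowest. The differences of Psmb9 were -0.72 (SE 0.12, adjusted p = 0.00145), -0.39 (SE 0.12, adjusted p = 0.041) and -0.33 (SE 0.12, adjusted p = 0.0512).

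Tap1, whose promoter overlaps that of Psmb9, lay at 10.15, 10.07, 9.77, 10.07 and 9.91 in wild type, 9.41, 9.66 and 9.17 in the early stage, 9.26, 9.34 and 9.60 in progression and 9.35, 9.43 and 9.67 in the terminal stage. No MLL-ENL-ERtm array reached wild type. It fell in all stages, by 0.58 (SE 0.14, adjusted p = 0.00996), 0.59 (SE 0.14, adjusted p = 0.00747) and 0.51 (SE 0.14, adjusted p = 0.00926). The 3 dimmer Tap1 probe sets, at spleen means of 3.14 to 5.23, gave differences between -0.17 and 0.26, and with the mean over all Tap1 probe sets no stage was called (adjusted p = 0.844, 0.195 and 0.285). Tapbp lay at 11.25, 11.21, 11.19, 11.35 and 11.14 in wild type, 10.89, 11.08 and 10.92 in the early stage, 10.92, 10.64 and 11.13 in progression and 10.78, 10.56 and 11.05 in the terminal stage. All 9 arrays were below wild type, and it was called in the terminal stage alone, at -0.43 (SE 0.13, adjusted p = 0.02).

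B2m lay at 13.79, 14.07, 14.04, 13.93 and 13.99 in wild type, 13.15, 13.08 and 13.64 in the early stage, 13.82, 13.65 and 13.66 in progression and 13.61, 13.43 and 13.66 in the terminal stage. Early 1 and 2 were lowest, progression 1 was above the lowest wild-type array, and the terminal arrays were below wild type. B2m fell by 0.67 (SE 0.13, adjusted p = 0.00279) in the early stage and fell by 0.40 (SE 0.13, adjusted p = 0.0278) in the terminal stage. A second B2m probe set was nearly as bright, at a spleen mean of 13.62 against 13.68. It gave smaller differences of -0.40, -0.10 and -0.24 in the early, progression and terminal stages. Tap2 was called in no stage, with levels from 8.59 on progression 1 to 9.90 on early 1 and differences of 0.22, -0.35 and 0.24. Without progression 3 its progression difference was -0.66 (adjusted p = 0.00389). Its 3 terminal arrays were all just above the 5 wild-type arrays, at 9.61 to 9.77 against 9.33 to 9.60, which 21.4% of all genes showed.

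Several class I calls ended when 1 array was left out. Without progression 1 the progression differences of Psmb8 and Psmb9 were -0.345 and -0.387, little changed from those with all arrays. In progression the calls of Psmb8 and Psmb9 ended in 7 of 8 fits that each left out 1 array (adjusted p up to 0.104 for Psmb8 and 0.107 for Psmb9, both without progression 1), Psmb8 holding only without wild-type 4 and Psmb9 only without wild-type 5. In the terminal stage B2m lost its call without terminal 1, terminal 2, wild-type 2, wild-type 3 or wild-type 5 (adjusted p 0.0533 to 0.121) and Tapbp without terminal 1 or 2 (0.0592 and 0.121). Tap1 lost its early call without early 3 (0.0507). With Xist as a covariate, limma's calls ended for Tapbp (adjusted p = 0.0743), B2m (0.121) and Trim30a (0.055) in the terminal stage, where every array had high Xist against 2 of 5 in wild type. In progression, where no array did, they ended for Psmb8 (0.0709), Psmb9 (0.0724) and Oas2 (0.0826).

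Cxcl10, the chemokine that draws activated T and NK cells through Cxcr3, lay at 7.44, 7.06, 6.78, 6.91 and 6.58 in wild type, 6.24, 5.50 and 5.71 in the early stage, 5.93, 5.68 and 6.42 in progression and 6.33, 5.71 and 5.93 in the terminal stage. All 9 MLL-ENL-ERtm spleens were below all wild-type spleens, and the 24-month wild-type array was highest. It fell by 1.14 (SE 0.23, adjusted p = 0.0037), 0.94 (SE 0.23, adjusted p = 0.0103) and 0.97 (SE 0.23, adjusted p = 0.00443). Without progression 2 its progression call ended (adjusted p = 0.0731).

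The signalling factors were mixed. Irf1 is a transcription factor induced by interferon gamma that switches on GTPase and class I genes. It lay at 10.79, 10.40, 10.24, 10.20 and 10.28 in wild type, 9.73, 9.75 and 9.27 in the early stage, 9.57, 9.69 and 9.72 in progression and 10.12, 9.88 and 9.81 in the terminal stage. All 9 arrays were below wild type, early 3 being lowest and terminal 1 nearest. Irf1 fell by 0.80 (SE 0.15, adjusted p = 0.00254), 0.72 (SE 0.15, adjusted p = 0.00428) and 0.45 (SE 0.15, adjusted p = 0.0335). Its terminal call ended without terminal 2, terminal 3, wild-type 1 or wild-type 2 (adjusted p 0.0584 to 0.122).

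Stat2, a transcription factor of type I signalling, lay at 7.10, 6.82, 7.04, 7.21 and 6.81 in wild type, 6.40, 6.61 and 6.49 in the early stage, 7.18, 6.92 and 6.57 in progression and 6.61, 6.34 and 6.35 in the terminal stage. Early and terminal arrays were below all wild-type arrays, and progression 1 and 2 were inside their range. Stat2 was called in the early stage, -0.49 (SE 0.14, adjusted p = 0.0304), and the terminal stage, -0.56 (SE 0.14, adjusted p = 0.00698), with -0.11 in progression. A dimmer Stat2 probe set gave -0.50 in progression, and -0.38 and -0.51 in the early and terminal stages. Its early call ended without early 1, early 3, wild-type 1, wild-type 3 or wild-type 4 (adjusted p 0.0522 to 0.122). Irf7, the factor that amplifies type I interferon production, lay at 8.71, 8.41, 8.62, 9.12 and 8.48 in wild type, 8.21, 8.48 and 8.41 in the early stage, 9.51, 8.29 and 8.14 in progression and 8.64, 7.24 and 7.82 in the terminal stage. Progression 1 was highest and terminal 2 lowest of the 14 arrays, and no stage was called for Irf7, with -0.77 (SE 0.32, adjusted p = 0.0789) in the terminal stage. Irf9, the DNA-binding part of the type I complex, ranged from 8.75 on terminal 2 to 10.03 on progression 1, with differences of -0.40, -0.06 and -0.36, none called.

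Of the nucleic acid sensors, Ifih1, which detects long double-stranded RNA, lay at 9.00, 9.13, 9.34, 9.35 and 9.06 in wild type, 8.54, 8.29 and 8.80 in the early stage, 9.02, 8.50 and 8.55 in progression and 8.43, 8.64 and 8.51 in the terminal stage. Progression 1 was just above the lowest wild-type array and the other 8 MLL-ENL-ERtm arrays were below it. Ifih1 fell by 0.63 (SE 0.15, adjusted p = 0.00972), 0.49 (SE 0.15, adjusted p = 0.0321) and 0.65 (SE 0.15, adjusted p = 0.00355). Zbp1, which senses left-handed nucleic acid helices and starts necroptosis, lay at 8.01, 7.90, 7.77, 7.85 and 7.80 in wild type, 6.78, 7.09 and 7.03 in the early stage, 8.19, 7.23 and 7.04 in progression and 7.59, 7.31 and 8.00 in the terminal stage. Its 3 early arrays were below all others except progression 3, while progression 1 was above wild type. Zbp1 was called in the early stage alone, at -0.90 (SE 0.22, adjusted p = 0.0121), and without progression 1 in progression too (-0.73, adjusted p = 0.0101). A dimmer Zbp1 probe set gave -0.86, -0.83 and -0.50 in the 3 stages, against -0.38 and -0.23 in progression and the terminal stage for the one used. The early calls of Zbp1 and Ifih1 ended without early 1 (adjusted p = 0.0634) and early 2 (0.0536) in turn, and the progression call of Ifih1 without progression 2, progression 3, wild-type 2, wild-type 3 or wild-type 4 (0.0524 to 0.169). Eif2ak2, the kinase that stops translation on double-stranded RNA, ranged from 8.17 to 9.26, with differences of 0.02, 0.24 and -0.04, none called, and 0.68 in progression from its dimmer probe set.

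The antiviral effectors were mixed. Of 13 measured members, 3 were called lower in the early stage, 1 lower and 1 higher in progression, and 6 lower and 1 higher in the terminal stage. Of all genes, 8.55%, 9.96% and 16.3% were called lower in the 3 stages and 7.35%, 9.29% and 18.1% higher, so the 2 calls in progression are near the share over all genes. Their median difference was -0.58, -0.20 and -0.84.

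Ifit1, which binds viral RNA that lacks the host cap modification, lay at 7.89, 8.01, 8.09, 8.86 and 8.09 in wild type, 7.02, 7.43 and 6.94 in the early stage, 8.51, 6.42 and 6.93 in progression and 6.04, 4.77 and 5.71 in the terminal stage. The 3 terminal arrays were the lowest of the 14, terminal 2 most of all, and progression 1 was the one MLL-ENL-ERtm array inside the wild-type range. Ifit1 fell by 2.68 (SE 0.40, adjusted p = 0.00015) in the terminal stage, 6.41-fold, with -1.06 (SE 0.40, adjusted p = 0.0919) in the early stage and -0.90 (SE 0.40, adjusted p = 0.13) in progression. Without progression 1 its progression difference was -1.52 (adjusted p = 0.00708). Ifit3, the partner that steadies Ifit1, lay at 7.13, 7.54, 7.59, 8.26 and 7.95 in wild type, 6.0, 5.77 and 5.70 in the early stage, 7.83, 6.75 and 6.27 in progression and 7.11, 5.79 and 6.35 in the terminal stage. The 3 early arrays and terminal 2 were the lowest, and progression 1 again lay within wild type. Ifit3 was called in the early stage, -1.87 (SE 0.35, adjusted p = 0.00222), and the terminal stage, -1.28 (SE 0.35, adjusted p = 0.0105), and its terminal call ended without terminal 2 (adjusted p = 0.0703). In progression it was -0.75 (SE 0.35, adjusted p = 0.147), and -1.19 (adjusted p = 0.0287) without progression 1. Ifit2, of the same family, ranged from 6.58 on early 2 to 7.92 on terminal 2 and was not called, with -0.58, -0.20 and 0.07.

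Rsad2 (viperin), which makes a nucleotide that ends viral RNA chains, lay at 13.76, 13.60, 13.71, 13.90 and 13.56 in wild type, 13.63, 13.82 and 13.92 in the early stage, 14.03, 13.49 and 13.44 in progression and 12.34, 11.48 and 11.98 in the terminal stage. Early and progression arrays overlapped wild type, and the 3 terminal arrays were far below all others. It fell by 1.77 (SE 0.18, adjusted p = 6.49e-06) in the terminal stage, 3.41-fold, with 0.08 and -0.05 in the earlier stages. Both dimmer Rsad2 probe sets gave larger terminal falls, -3.30 and -2.29. Usp18, which strips Isg15 from proteins and damps the type I receptor, lay at 8.23, 8.36, 8.42, 8.59 and 8.16 in wild type, 7.26, 7.60 and 7.50 in the early stage, 9.27, 7.31 and 7.50 in progression and 7.50, 5.70 and 6.68 in the terminal stage. Terminal 2 was lowest and progression 1 highest. Usp18 was called in the terminal stage, -1.73 (SE 0.41, adjusted p = 0.00453), and not in the early stage, -0.90 (SE 0.41, adjusted p = 0.164), or in progression, -0.33 (SE 0.41, adjusted p = 0.608), although all early arrays were below wild type.

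Trim30a, a TRIM protein that restrains inflammatory signalling, lay at 9.63, 10.30, 10.36, 10.49 and 10.42 in wild type, 8.87, 9.06 and 9.41 in the early stage, 10.33, 9.41 and 9.58 in progression and 9.52, 9.43 and 9.27 in the terminal stage. Wild-type 1, the 24-month array, was the lowest wild type, and progression 1 lay among the other 4. Trim30a fell by 1.13 (SE 0.22, adjusted p = 0.00353) in the early stage and, in the terminal one, fell by 0.84 (SE 0.22, adjusted p = 0.00947), with -0.47 (SE 0.22, adjusted p = 0.158) in progression. The progression difference of Trim30a was -0.75 (adjusted p = 0.034) without progression 1 and -0.62 (adjusted p = 0.0391) without wild-type 1, and its dimmer probe set gave -0.85, -0.52 and -0.48 in the 3 stages. Parp14 lay at 8.99, 8.73, 8.83, 9.10 and 8.80 in wild type, 7.64, 8.19 and 7.76 in the early stage, 8.76, 7.30 and 7.97 in progression and 7.84, 7.39 and 8.19 in the terminal stage. Progression 1 reached the wild-type range and progression 2 was the lowest array. The differences of Parp14 were -1.03 (SE 0.26, adjusted p = 0.0164), -0.88 (SE 0.26, adjusted p = 0.0315) and -1.09 (SE 0.26, adjusted p = 0.00528). Its early call ended without early 1 (adjusted p = 0.0781) or early 3 (0.0525), and its progression call held only without progression 1 or wild-type 2 (otherwise adjusted p 0.0512 to 0.207).

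Oas2, an oligoadenylate synthetase that arms RNase L, was the one member called higher. It lay at 7.18, 6.83, 7.12, 7.40 and 6.95 in wild type, 7.04, 7.53 and 7.05 in the early stage, 9.23, 8.15 and 7.11 in progression and 8.85, 8.10 and 8.05 in the terminal stage. Early arrays overlapped wild type, progression 1 was highest, progression 3 lay inside the wild-type range, and all terminal arrays were above it. Oas2 rose by 1.24 (SE 0.35, adjusted p = 0.0131) in the terminal stage and by 1.07 (SE 0.35, adjusted p = 0.047) in progression. Without progression 1 the progression difference was 0.53 (adjusted p = 0.244), and it was called only when progression 3 was the array left out. Without terminal 1 the terminal difference was 0.98 (adjusted p = 0.0759).

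The remaining effectors were not called in any stage. Bst2 (tetherin), which holds budding virus at the cell surface, lay at 8.90, 8.79, 8.76, 8.90 and 8.94 in wild type, 8.45, 8.36 and 8.30 in the early stage, 9.28, 8.42 and 8.28 in progression and 8.58, 7.98 and 8.82 in the terminal stage. All early arrays were below wild type, with -0.49 (SE 0.21, adjusted p = 0.139), and progression 1 was highest. Mx1 ranged from 4.67 on early 1 to 7.34 on progression 1, and Mx2 from 5.55 to 6.48. Both encode antiviral dynamin-like GTPases. Oasl2, an oligoadenylate synthetase-like protein, ranged from 4.97 on terminal 2 to 7.87 on progression 1, with differences of -0.98, -0.49 and -0.90. Ifi35 ranged from 8.78 to 9.92, with -0.47 (SE 0.18, adjusted p = 0.0551) in the terminal stage.

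**Figure D3:**
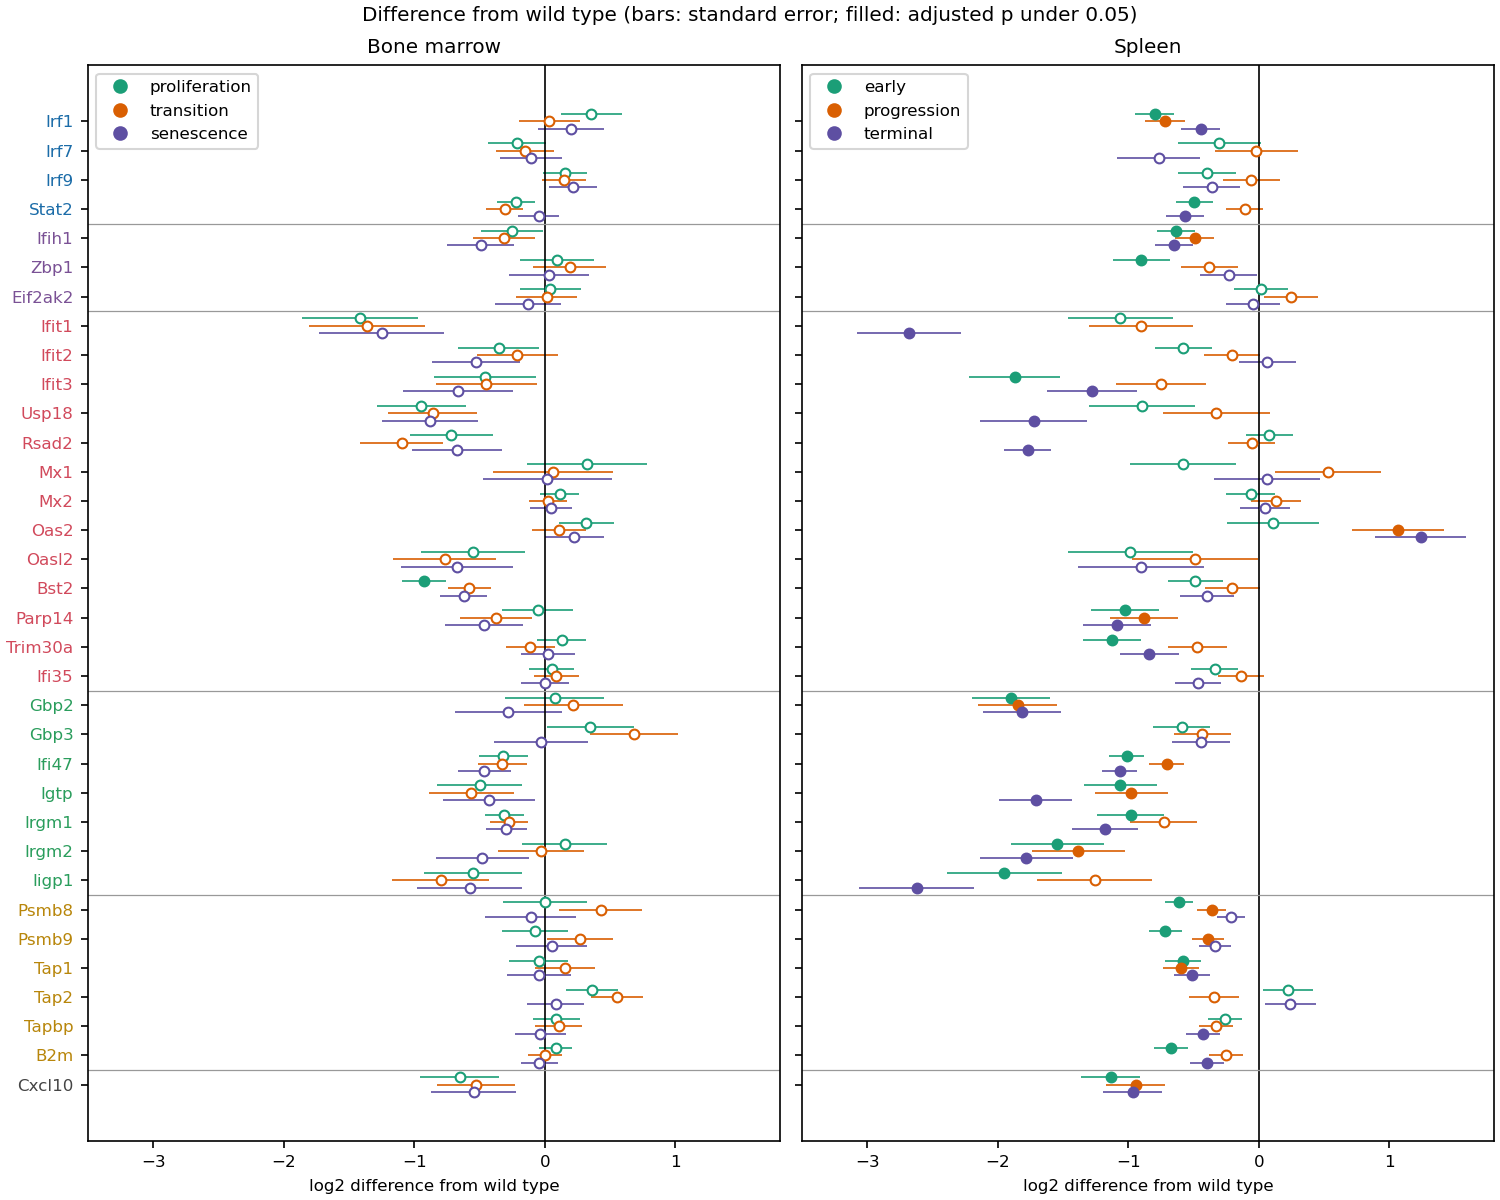
Log2 difference from wild type of 34 interferon-induced genes in each marrow state (left) and spleen stage (right), with bars of 1 standard error. Filled points have an adjusted p under 0.05. Filled points crowd left of 0 in the spleen panel, the 2 on its right side are Oas2, and the marrow panel has 1, Bst2 in proliferation.

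Progression spleen 1, singled out after its values were seen, differed from progression 2 and 3 in a set of members. It was the highest spleen array for Oas2, Oasl2, Mx1, Mx2, Irf7, Irf9, Bst2, Usp18, Rsad2, Ifi35, Irgm1 and Zbp1. Its level exceeded the mean of progression 2 and 3 by more than 1 log2 unit for 11 of 34 members, against 1.41% of all genes. The excess was 1.98 for Oasl2, 1.86 for Usp18, 1.84 for Ifit1, 1.60 for Oas2 and 1.58 for Mx1. No class I gene exceeded by more than 0.17, and Gbp2, Cxcl10 and Tap1 were at -0.39, -0.12 and -0.21. Against wild type, the median member on progression 1 was -0.02, with 17 of 34 members above, while it was -0.61 and -0.53 on progression 2 and 3. Within progression 1 the median GTPase was at -0.75, the median class I gene at -0.40 and Cxcl10 at -1.02, so these roles were low on that array as well, whereas the median effector was at 0.40. Monocyte markers were also highest on this array, at 2.24 above wild type. Without progression 1, 14 members were called in progression, all lower, with 13.1% of all genes called. Without progression 2 the count was 4 and without wild-type 3 it was 6, with the share over all genes not given for these fits.

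**Figure D4:**
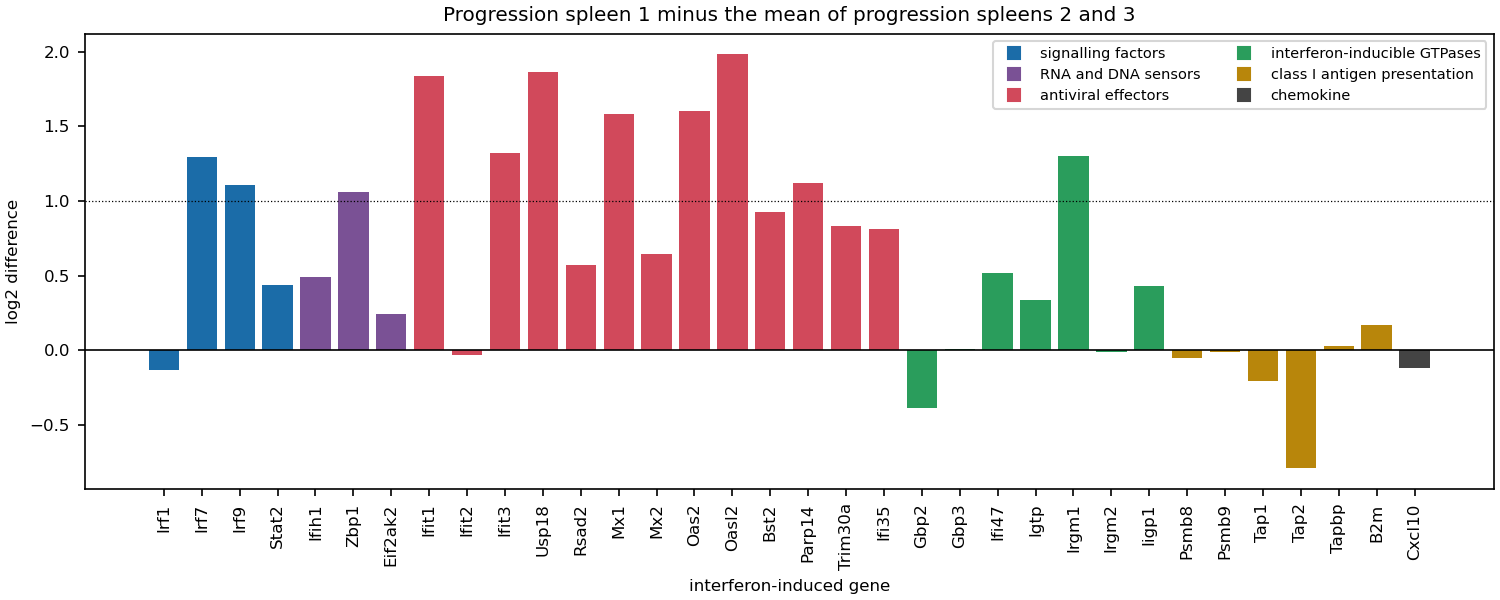
Bars give the log2 level on progression spleen 1 minus the mean of progression spleens 2 and 3 for 34 interferon-induced genes, coloured by role. The dotted line marks 1 unit. Of the bars, 11 pass it, 7 of them antiviral effectors, and the class I bars lie between -0.79 and 0.17.

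Between disease stages few members were called. From early to progression no member was called in limma's test, where no gene was called (0%), and 8 members had an unadjusted p under 0.05, against 7.34% of all genes. Ifit3, Psmb9, B2m and Trim30a were higher on all 3 progression arrays than on all 3 early arrays, which 4.18% of all genes showed, by 1.12, 0.33, 0.42 and 0.66. From progression to the terminal stage Ifit1 and Rsad2 fell, where 5.86% of all genes were called. Rsad2 fell by 1.72 (SE 0.20, adjusted p = 0.000143) and Ifit1 by 1.78 (SE 0.45, adjusted p = 0.0332), and all terminal arrays were below all progression arrays for both. The Ifit1 call ended without progression 1, terminal 2 or terminal 3 (adjusted p = 0.101, 0.123 and 0.0636). With Xist as a covariate in limma it ended as well (adjusted p = 0.206), while Rsad2 stayed called. Terminal arrays all had high Xist and 19 to 23 months of tamoxifen, and progression arrays all had low Xist and 9 to 10 months. Stage and time on tamoxifen cannot be told apart here, and Xist differed with them. The same 2 members fell from early to terminal, where 6.61% of all genes were called, again near the share. The differences were -1.85 (SE 0.20, adjusted p = 4.64e-05) for Rsad2 and -1.62 (SE 0.45, adjusted p = 0.0469) for Ifit1. This Ifit1 call ended without early 1, early 2, terminal 2 or terminal 3 (adjusted p up to 0.186), and with Xist as a covariate (0.131).

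In marrow few interferon-induced genes passed the test against wild type. In the proliferation state 1 of 34 members was called, Bst2, lower, where 0.282% of all genes were called, and 5 had an unadjusted p under 0.05 (9.90% of all genes). None was called in the transition state (0.420% of all genes) or in senescence (0.0484%), where 5 and 4 members had an unadjusted p under 0.05 (10.5% and 6.36% of all genes). The median member difference was -0.05, -0.07 and -0.12, and the median over all genes 0.01, 0.04 and 0.00. No member was called between any pair of the 3 states, where no gene of the array was called (0%), with 0, 1 and 0 members at an unadjusted p under 0.05 for transition against proliferation, senescence against transition and senescence against proliferation (2.15%, 3.07% and 1.01% of all genes). Ccr9, Tcf4, Irf8, Cox6a2 and Ly6d, the plasmacytoid dendritic cell markers measured, had a mean deviation from wild type of -1.11 to -0.36 on the 11 MLL-ENL-ERtm marrow arrays. That of the B cell markers was -2.11 to -0.93, and the part of both lists in these values was not tested.

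Bst2, also a surface marker of plasmacytoid dendritic cells and plasma cells, lay at 9.37, 9.22, 9.08 and 8.89 in wild type, 8.35, 8.19, 8.12 and 8.22 in proliferation, 8.35, 8.50, 8.95 and 8.46 in transition and 8.18, 8.48 and 8.90 in senescence. The 4 proliferation arrays were all below the 4 wild-type arrays, while transition 3 and senescence 3 reached the wild-type range. Bst2 fell by 0.93 (SE 0.17, adjusted p = 0.0317) in proliferation, and its difference was -0.58 (SE 0.17, adjusted p = 0.213) in transition and -0.62 (SE 0.18, adjusted p = 0.508) in senescence. The call held in 2 of 8 fits that each left out 1 proliferation or wild-type array, those without wild-type 2 or wild-type 4, and the adjusted p was 0.0692 to 0.123 in the other 6. It also ended with Xist as a covariate, and the 4 proliferation arrays all had high Xist against 2 of 4 wild-type arrays. Over the mean of the 3 states Bst2 fell by 0.71 (SE 0.14, adjusted p = 0.0294), the 1 member called there among 0.662% of all genes, and this call held in 7 of 15 fits that each left out 1 array (adjusted p up to 0.132, without wild-type 1). It ended without proliferation 2 or 4, transition 2 or 4, or any wild-type array.

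Ifit1 in marrow depended on 1 wild-type array. It lay at 7.16, 9.74, 9.28 and 9.66 in wild type, 7.19, 7.66, 7.27 and 8.07 in proliferation, 7.78, 7.57, 7.22 and 7.83 in transition and 7.36, 7.54 and 8.23 in senescence. Wild-type 1, at 8 months of tamoxifen, was the lowest of the 15 arrays, and the other 3 wild types were above every MLL-ENL-ERtm array. With all arrays the differences of Ifit1 were -1.41 (SE 0.44, adjusted p = 0.264), -1.36 (SE 0.44, adjusted p = 0.29) and -1.25 (SE 0.48, adjusted p = 0.688). Without wild-type 1 they were -2.01 (adjusted p = 0.00301), -1.96 (0.00392) and -1.85 (0.0213), called in all 3 states. Wild-type 1 also had the lowest levels of Cxcl10 and Usp18 among the wild types.

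Usp18 and Rsad2 were the other members with 1 of the 3 smallest p-values in a marrow state. Usp18 lay at 8.61, 9.47, 9.79 and 9.78 in wild type, 7.97, 8.61, 7.88 and 9.41 in proliferation, 8.41, 8.71, 7.98 and 9.13 in transition and 8.53, 8.34 and 8.72 in senescence. Wild-type 1 lay inside the range of the MLL-ENL-ERtm arrays and the other 3 wild types were above all of them. The differences were -0.95, -0.86 and -0.88, none called. Rsad2 lay at 14.64, 14.02, 14.77 and 15.04 in wild type, 13.32, 13.83, 14.12 and 14.35 in proliferation, 14.20, 13.85, 13.50 and 12.54 in transition and 13.85, 14.18 and 13.80 in senescence. Wild-type 2 was inside the range of the MLL-ENL-ERtm arrays and transition 4 was lowest, with differences of -0.72, -1.10 (SE 0.32, adjusted p = 0.214) and -0.68. Both dimmer Rsad2 probe sets gave -1.59 and -1.41 in proliferation, -1.79 and -1.80 in transition and -1.26 and -1.20 in senescence. Without transition 1, the array with the most low members, Rsad2 was called in transition at -1.32 (adjusted p = 0.0327), and so were Gbp3 at 1.03 (0.0473) and Tap2 at 0.71 (0.0469), both higher.

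Cxcl10 in marrow lay at 7.39, 8.95, 8.24 and 8.20 in wild type, 7.48, 7.83, 7.47 and 7.39 in proliferation, 7.21, 7.67, 7.83 and 7.97 in transition and 7.21, 7.36 and 8.38 in senescence. Senescence 3 was the highest MLL-ENL-ERtm array and wild-type 1 lay among the low arrays, and no state was called. Irf7 lay at 9.72, 10.29, 10.50 and 10.40 in wild type, 9.97, 10.12, 9.53 and 10.41 in proliferation, 9.84, 10.04, 9.97 and 10.45 in transition and 9.99, 9.82 and 10.54 in senescence, with overlap throughout. Stat2 lay at 8.28, 8.06, 8.03 and 7.90 in wild type, 7.87, 7.89, 7.72 and 7.91 in proliferation, 7.39, 7.73, 7.77 and 8.15 in transition and 8.05, 7.87 and 8.14 in senescence. Its lowest array was transition 1, and the differences were -0.22, -0.31 and -0.05. Psmb8 lay at 11.07, 11.46, 11.67 and 11.71 in wild type, 11.10, 11.66, 11.48 and 11.67 in proliferation, 11.11, 11.99, 12.59 and 11.93 in transition and 11.07, 10.78 and 12.25 in senescence. It was highest on transition 3 and senescence 3, and lowest on senescence 2. B2m varied little, at 14.68, 14.56, 14.71 and 14.80 in wild type, 14.71, 14.87, 14.79 and 14.71 in proliferation, 14.32, 14.95, 14.80 and 14.68 in transition and 14.56, 14.57 and 14.80 in senescence, with differences of 0.08, 0.00 and -0.04. No state stood out for B2m.

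The other marrow members gave differences between -0.80 (Iigp1 in transition) and 0.68 (Gbp3 in transition), none called. Within the transition state, class I genes were highest on transition 2 and 3, with medians of 0.53 and 0.63 above wild type, and lowest on transition 1, at -0.37. In senescence, array 3 stood above arrays 1 and 2 for class I genes, with medians of 0.51, -0.22 and -0.23.

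Between the tissues, 6 members differed in their fusion effect. The count is near the share over all genes in either direction and above the share in the direction seen. The mean of the 3 marrow states minus wild type was set against the mean of the 3 spleen stages minus wild type in a fit over all 29 arrays, and 6 of 34 members passed, all with the lower value in spleen, where 14.1% of all genes were called and 8.60% in this direction. In the spleen mean alone, 23 members were called lower and 1 higher, against 32.5% of all genes in either direction and 16.4% lower. The median tissue difference was 0.44 for the members and -0.03 for all genes. The fit takes marrow and spleen as unrelated samples, since the labels do not tie them to animals. Marrow states had 7 to 8 months of tamoxifen and spleen stages 7 to 23 months. Tissue therefore cannot be told apart from time on tamoxifen and disease stage in this contrast.

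Gbp2 differed most, by 1.86 (SE 0.41, adjusted p = 0.00259), from 0.01 in marrow to -1.85 in spleen. Its marrow levels were 9.28, 10.53, 10.14 and 10.13 in wild type, 9.74, 10.29, 10.20 and 10.16 in proliferation, 9.22, 11.20, 10.33 and 10.19 in transition and 9.30, 9.36 and 10.57 in senescence. Transition 2 was highest and transition 1 lowest, with wild type between them. Irgm2 differed by 1.45 (SE 0.40, adjusted p = 0.0157), from -0.12 to -1.57, and its marrow levels were 10.92, 10.42, 10.25 and 11.58 in wild type, 10.26, 10.65, 11.31 and 11.55 in proliferation, 11.06, 11.18, 10.48 and 10.34 in transition and 10.19, 10.01 and 10.75 in senescence. Wild-type 4 and proliferation 4 were the highest of these arrays. Without wild-type marrow 3 the call of Irgm2 ended (adjusted p = 0.0532).

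Irf1 differed by 0.85 (SE 0.23, adjusted p = 0.0131), from 0.20 in marrow to -0.65 in spleen. In marrow it lay at 12.29, 11.94, 11.98 and 11.76 in wild type, 12.40, 12.36, 12.25 and 12.37 in proliferation, 11.28, 12.58, 11.97 and 12.28 in transition and 11.95, 11.98 and 12.65 in senescence. All 4 proliferation arrays were above the wild-type median and transition 1 was lowest. Trim30a differed by 0.83 (SE 0.24, adjusted p = 0.0204), and its marrow levels of 11.81, 11.68, 11.64 and 11.78 in wild type, 11.67, 12.03, 11.62 and 12.11 in proliferation, 11.08, 11.91, 11.41 and 12.08 in transition and 11.89, 11.72 and 11.65 in senescence overlapped in every state. Ifi47 differed by 0.56 (SE 0.19, adjusted p = 0.0489), with marrow levels of 12.20, 12.80, 12.55 and 12.54 in wild type, 12.10, 12.23, 12.12 and 12.38 in proliferation, 11.83, 12.50, 12.23 and 12.24 in transition and 11.55, 12.31 and 12.32 in senescence, where senescence 1 was lowest. B2m differed by 0.46 (SE 0.14, adjusted p = 0.0343). The call of Ifi47 held in 7 of 29 fits that each left out 1 array (adjusted p up to 0.134) and that of B2m in 19 of 29 (up to 0.0804). With the mean over all probe sets of a gene, the B2m tissue difference was 0.38 and was not called in limma (adjusted p = 0.0647). No antiviral effector other than Trim30a was called, and Ifit1, at -1.34 in marrow and -1.55 in spleen, differed by 0.21 (SE 0.50, adjusted p = 0.836).

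**Figure D5:**
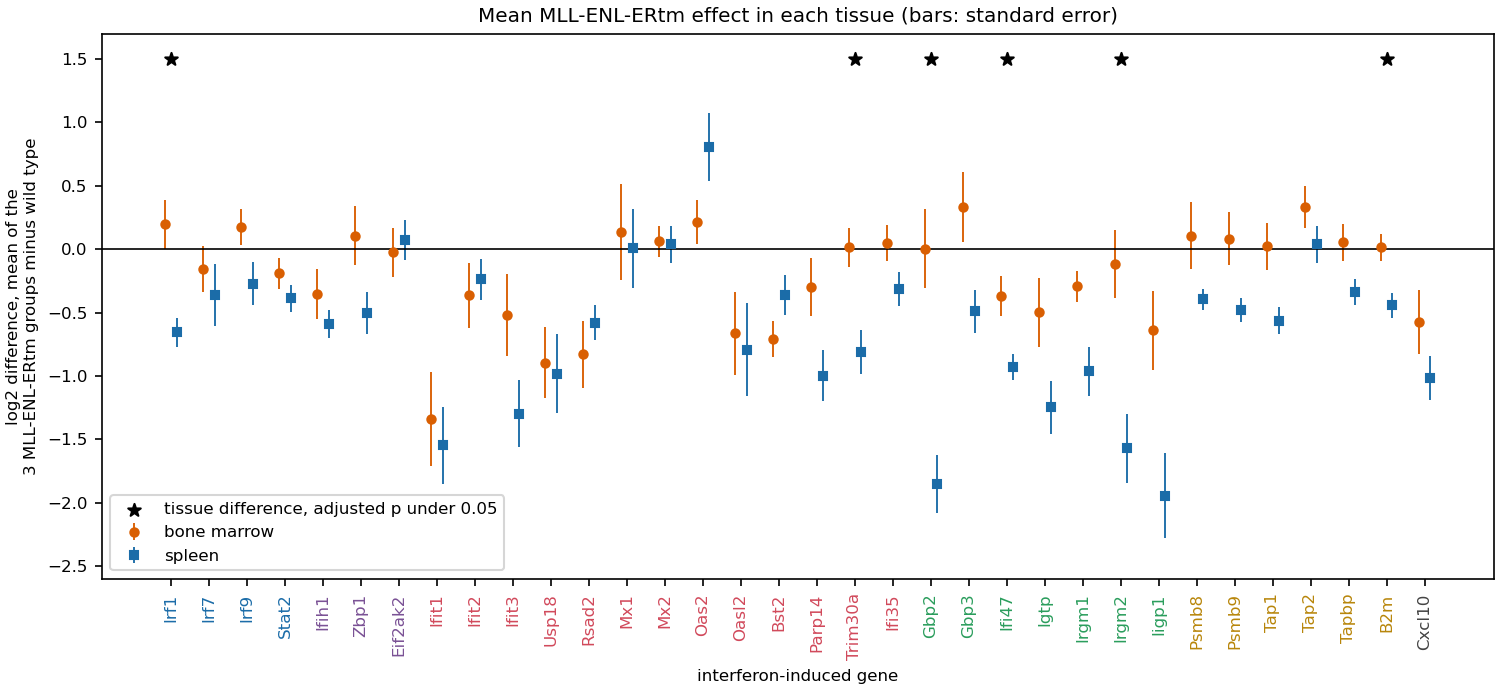
Mean log2 difference of the 3 MLL-ENL-ERtm groups from wild type in marrow (circles) and spleen (squares) for 34 interferon-induced genes, with bars of 1 standard error. Stars mark the 6 members whose tissue difference had an adjusted p under 0.05, among them Gbp2 at 0.01 in marrow and -1.85 in spleen. Ifit1 lies at -1.34 in marrow and -1.55 in spleen.

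Other genes of the interferon pathway, 77 measured outside the members, were called lower for 24 and higher for 1 in the early spleen, lower for 13 and higher for 4 in progression and lower for 21 and higher for 10 in the terminal stage. Of all genes, 8.55%, 9.96% and 16.3% were called lower and 7.35%, 9.29% and 18.1% higher. In marrow none of the 77 was called in any state against wild type. Among 9 ligand genes, Ifng, interferon gamma itself, fell in spleen by 1.14 (SE 0.23, adjusted p = 0.00433) in the early stage, by 1.33 (SE 0.23, adjusted p = 0.00129) in progression and by 0.85 (SE 0.23, adjusted p = 0.0115) in the terminal stage. The group means of Ifng were 5.53 in wild type, 4.38 in the early stage, 4.20 in progression and 4.68 in the terminal stage. The lower quartile of the spleen arrays was 4.56 to 4.81, so Ifng was dim in every stage and the size of its fall is uncertain. Ifnb1 was not called, with differences of -0.21, -0.28 and 0.02.

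Of 8 receptors and kinases, Jak1, Jak2 and Il10rb were called lower in early and progression spleen. Jak1, used by both interferon receptors, fell by 0.76, 1.19 and 0.89 in the 3 stages (adjusted p = 0.0105, 0.000448 and 0.00158), and Jak2 by 0.44, 0.51 and 0.70 (adjusted p = 0.0218, 0.00863 and 0.000433). Ifngr2 and Ifnar2 rose in the terminal stage by 1.10 (adjusted p = 0.00312) and 0.71 (adjusted p = 0.00796). Ifnar1 at -0.44, -0.17 and -0.01, Ifngr1 at -0.04, 0.29 and 0.54, and Tyk2 at -0.23, 0.14 and -0.04 were not called in any stage, and neither was the brake Socs1 at -0.59, -0.61 and -0.09 or the myeloid factor Irf8 at -0.66, -0.31 and -0.83.

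Other interferon-induced genes outside the members were called in both directions. Of 29 measured, 8 were called lower and 0 higher in the early stage, 5 lower and 2 higher in progression and 11 lower and 4 higher in the terminal stage, where 15.9%, 19.3% and 34.5% of all genes were called in either direction. The chemokine Cxcl9, induced by interferon gamma, fell by 2.12, 1.39 and 2.04, and the guanylate-binding protein Gbp6 fell by 2.02, 1.94 and 2.16. The class I heavy chain H2-K1 fell by 0.74, 0.74 and 0.88. In the opposite direction the membrane protein Ifitm3, which blocks viral entry, rose by 1.12 in progression and 1.59 in the terminal stage. The exonuclease Isg20 fell by 2.29 in the terminal stage against wild type.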

How the data were processed

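RNA of marrow and spleen cells was measured on Affymetrix mouse arrays, 15 from marrow and 14 from spleen. The authors deposited log2 expression values per probe set, and the submitters' processing notes name affy, RMA and limma without versions. The array medians differ between the tissues, so each tissue was handled apart. Genes were read from the brightest probe set annotated to 1 symbol, from 22690 probe sets of which 20393 had 1 symbol, 691 several and 1606 were not listed. Differences were tested with limma 3.58.1 in R 4.3.3 (lmFit and eBayes), in 1 model of 4 groups per tissue, with Benjamini-Hochberg adjustment over 12394 genes and a threshold of 0.05. The tissue difference came from 1 model of 8 groups. No low-value filter was applied. Groups were taken from the labels. The labels call arrays biological replicates, and p-values measure the spread between these samples. The number of arrays limits the precision.

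The members, roles, pathway lists and marker lists were chosen with earlier results of these data known. Levels are given per array for every member past the threshold in any comparison, for the 3 smallest p-values in each comparison with wild type and for Irf7, Stat2, Ifit1, Bst2, Psmb8, B2m and Cxcl10. Other members are given by range or difference. The fitting code was tested on simulated data. Alternatives were other probe set rules, quantile scaling, array weights, trend and robust fits, a filter on dim genes, Xist or Gapdh as covariate, a replicate block, the groups compared alone and each array left out. Figures were drawn with matplotlib 3.10.9.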

Additional observations from a re-analysis of the deposited data

Results flagged for a closer look

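In 8 of 136 combinations of a member and a group of 4 or 5 arrays, 1 array lay far from the others relative to the range of its group. Chance gives about 1 in 20. A small gap can count where the group is tight, as for Ifi47. In marrow, Ifit2 on transition 1 was 8.936 with the next array at 10.108, Ifit3 on proliferation 3 was 8.14 with the next at 8.991, Eif2ak2 on proliferation 1 was 7.648 with the next at 8.274, and Parp14 on wild-type 2 was 10.035 with the next at 10.519. In wild-type spleen, Ifit1 on array 4 was 8.864 with the next at 8.094, Ifit2 on array 1 was 6.964 with the next at 7.721, Ifi47 on array 2 was 11.011 with the next at 10.964, and Trim30a on array 1 was 9.629 with the next at 10.298. Array 1 is the spleen at 24 months of tamoxifen.

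The fusion effect in marrow minus that in spleen passed limma's test for 6 members, at 0.85 for Irf1, 1.86 for Gbp2, 0.56 for Ifi47, 1.45 for Irgm2, 0.46 for B2m and 0.83 for Trim30a on the log2 scale.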

How the results depend on the processing

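No called difference changed sign under any alternative that was run. Counts of called members moved by over 1.5 times as follows. The share of all genes called under each setting is not given here, so a move may not be particular to the members. With array weights they were 3 in proliferation, 7 in transition, 28 in the early stage, 5 for progression minus early, 4 for terminal minus progression, 10 for terminal minus early, 6 for the marrow mean and 15 for the tissue difference. With the replicate number as a block they were 0 in proliferation, 10 in the early stage, 6 in progression, 1 for terminal minus progression, 1 for terminal minus early and 0 for the marrow mean. With Xist as covariate they were 0 in proliferation, 1 for terminal minus progression, 1 for terminal minus early and 0 for the marrow mean. With above-median genes alone they were 0 in proliferation, 1 for terminal minus progression and 0 for the marrow mean, because this filter left the called members Bst2 in marrow and Ifit1 in spleen untested, which says nothing about their calls. For terminal minus early the count was 1 with quantile scaling, with trend and robust fits, with Gapdh as covariate and with the groups compared alone, which also gave 1 for terminal minus progression.

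Leaving out 1 array at a time gave 0 to 1 calls in proliferation, 0 to 3 in transition, 0 to 1 in senescence, 13 to 18 in the early stage, 4 to 14 in progression, 16 to 20 in the terminal stage, 0 to 2 for progression minus early, 1 to 5 for terminal minus progression, 1 to 7 for terminal minus early, 0 to 1 for the marrow mean, 20 to 27 for the spleen mean and 3 to 10 for the tissue difference. The tissue count was 10 without transition marrow 1 and 3 without wild-type marrow 3. Leaving out progression spleen 1 together with wild-type spleen 3, an alternative chosen after seeing the data, gave 19, 10 and 21 calls in the 3 stages and 1 for terminal minus progression. The cause of these moves was not tested, nor was it tested whether they were particular to the members.

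Whether the replicate numbers pair the samples was not settled, since only arrays with the same number were compared. Deviations of same-numbered arrays correlated between -0.43 and 0.551 in marrow, above 0.1 in 10 of 21 pairs, and between -0.321 and 0.23 in spleen, above 0.1 in 5 of 18 pairs.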

Other observations

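Among the 77 pathway genes counted above, 5 that were not named there passed limma's test in spleen and are given here, chosen after their values were seen. Irf4, a factor of B cell and plasma cell development, fell by 1.36, 2.06 and 2.17 in the early, progression and terminal stages. Irf2, which competes with Irf1 for the same sites, fell by 0.84, 1.05 and 0.84. Ifitm2, a relative of Ifitm3, rose by 1.93 and the adaptor gene Myd88 by 1.11 in the terminal stage, and the kinase gene Ikbke rose by 0.47, 0.47 and 0.67 in the 3 stages.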
